A study of Mus musculus with 9 samples.

Results

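The Pou5f1 locus on mouse chromosome 17 was chosen because far more bisulfite reads lay on it than on its surroundings. Its members are the CpG sites from 35635001 to 35652000 (build mm9), a stretch of 17 kb that holds Pou5f1 (gene ID 18999) on the plus strand, from 35642977 to 35647722. The tables listed 228 such sites in the wild-type (WT) pool and 230 in Tet1-null cells, or 232 positions in either, of 18722682 positions in all. Read depth chose the locus, so depth is described here without a test, whereas methylation levels were not used to choose it. Primordial germ cells, the precursors of eggs and sperm, came from female C57BL/6 embryos at embryonic day 13.5 that were WT (4 libraries) or lacked both copies of Tet1 (Tet1 -/-, 5 libraries), from 1400 to 5251 cells per library. Whole-genome bisulfite sequencing reads unmethylated cytosines as thymine, so the methylation level of a site is the share of its reads that kept cytosine. The method does not tell 5-methylcytosine from 5-hydroxymethylcytosine, the product of Tet1. The labels do not say whether libraries came from separate embryos. The libraries of a genotype were pooled in 1 table, so WT and Tet1-null below stand for 1 pool each and no difference has a replicate check. Kits and sequencing runs that differ between the pools cannot be told apart from genotype. The knockout itself was not checked here, since the Tet1 gene lies outside the locus.

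Pou5f1 encodes Oct4, a POU-domain transcription factor that keeps cells pluripotent and is made in germ cells of the embryo. A promoter next to the start is helped by a proximal enhancer, active mainly in the epiblast, and by a more distant enhancer, active in the inner cell mass, embryonic stem cells and germ cells. Methylation of the promoter and enhancers goes with silencing of the gene in somatic cells. Tet1 encodes a dioxygenase that oxidises 5-methylcytosine, a step towards its removal. Reporter transgenes built from a genomic fragment of this gene, some of them without the proximal enhancer, are in common use to mark and sort mouse germ cells. The labels used here name neither a reporter nor a sort. Whether extra copies of the fragment gave the depth was not tested, and reads from such copies and from the gene itself cannot be told apart in the tables.

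Of the 2 RefSeq promoters of Pou5f1, the second has 6 CpGs, from 2600 to 2760 bases after the start, and is not printed. The first (GRCm38.p6, chr17:35505782-35506081, plus strand) is shown because an edge of the depth profile falls inside it. The 11 CpGs are in capitals and the gene start is base 251.

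Pou5f1 promoter: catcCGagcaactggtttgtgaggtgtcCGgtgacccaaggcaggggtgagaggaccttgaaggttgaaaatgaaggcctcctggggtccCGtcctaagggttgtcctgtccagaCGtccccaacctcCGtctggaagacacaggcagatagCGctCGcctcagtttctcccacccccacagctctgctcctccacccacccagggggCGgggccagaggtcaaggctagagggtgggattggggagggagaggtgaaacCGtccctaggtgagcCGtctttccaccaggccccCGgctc

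All 11 CpGs of this sequence matched listed positions of the locus by their spacing, with no further listed position between them, and no other placement within the locus matched more than 3. The match puts the gene start at the position given above, although the sequence comes from another build. The CpGs at bases 5 and 29 had 2 and 2 reads in WT and 3 and 1 in Tet1-null cells. The next CpG, at base 91, had 17 and 15 reads, and that at base 116 had 25 and 26. Depth therefore stepped up between bases 29 and 91 of the printed sequence in both pools. A GC box, the letters GGGCGG searched on both strands, occurred once from base 206 and holds the CpG at base 209, which had 1 methylated read of 17 in WT and 0 of 15 in Tet1-null cells. Of 32851 RefSeq promoters of this length, 35.7% hold these letters. The half-site of nuclear receptors, AGGTCA, occurred from base 218 and is present in 16.3% of these promoters, on either strand. Methylation across the printed promoter was low. The highest CpG was that at base 116 in WT, with 2 methylated reads of 25 (8.0%, Wilson 95% interval 2.22 to 25.0%), and that at base 153 in Tet1-null cells, with 2 of 27 (7.41%, 2.06 to 23.4%). The site nearest the gene start, 10 bases after it, had no methylated read among 8 and 13 reads, which allows levels of up to 37.5% and 23.1%.

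Depth rose abruptly on entering the locus and fell abruptly on leaving it. In the WT pool the median site of the locus had 26.0 reads and the median site of the flanks, 50 kb on each side, had 2.00, a ratio of 13.0. In the Tet1-null pool the medians were 31.0 and 2.00, a ratio of 15.5. The flank medians are small whole numbers, so these ratios are coarse. With mean reads per site, 25.4 against 1.97 and 29.9 against 2.76, the ratios were 12.9 and 10.8, and the order of the pools turned. By reads in total, the Tet1-null pool held 1.19 times as many as the WT pool in the locus, 1.67 times in the flanks and 1.54 times over the autosomes. On the mean scale, 92.2% of the WT reads and 90.8% of the Tet1-null reads of the locus lay above the depth of the flanks. The deepest flank site had 10 reads in WT and 13 in Tet1-null cells, and 205 of 228 and 208 of 230 sites of the locus exceeded these. Over the autosomes, 0.0176% and 0.0371% of listed sites had more than 20 reads, against 171 of 228 and 192 of 230 sites of the locus.

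**Figure D1:**
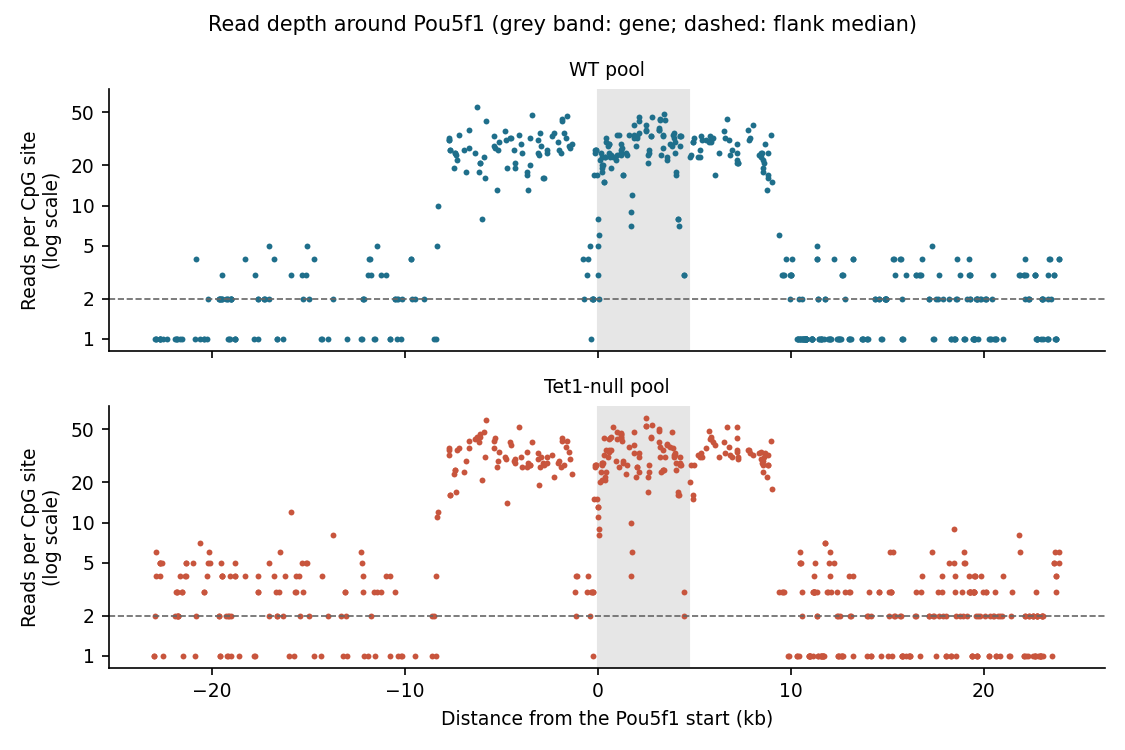
Reads per CpG site (log scale) against the distance from the Pou5f1 start in kb, for the WT pool (upper) and the Tet1-null pool (lower), with the locus and 15 kb on each side. Each point is a site, the dashed line is the flank median of 2.00 reads, the grey band is the gene, and both pools show a plateau around 26.0 and 31.0 reads that is broken just before the start.

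The edges of the plateau lay at like places in both pools. On the upstream side, the site 8290 bases before the gene start had 10 reads in WT and 12 in Tet1-null cells, and the next site, 7714 bases before the start, had 32 and 36. On the downstream side, the site 9022 bases after the start had 15 and 18 reads and the next, 9423 bases after it, had 6 and 3. From the first to the last of the deep sites, defined by a running median of 5 sites above 5 times the flank median in both pools, the plateau spanned 16737 bases, from 35635263 to 35651999. It fell into 5 blocks, of which the longest, 6386 bases with 69 sites, reached from 7714 to 1329 bases before the start. In the RefSeq order of genes, Pou5f1 lies between the long noncoding RNA Gm32362 and Tcf19. Among 372073 windows of 1 kb tested on the autosomes and the X, 403 had a mean depth above 10 reads per site in both pools. They formed 228 groups of neighbouring windows, and the group at Pou5f1, with all 17 windows of the locus, was the longest, followed by a group of 16. This rank rests on the window from 35642001, which holds much of the gap described below. Its mean depth was just above the limit, at 10.1 reads in WT and 11.5 in Tet1-null cells. Without that window the group would be split and not the longest.

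A gap before the gene start interrupted the plateau. There, 14 neighbouring positions from 35641830 to 35642755, that is from 1147 to 222 bases before the start, had the depth of the flanks. The WT pool listed 10 of them with 1 to 5 reads (mean 2.70), and the Tet1-null pool 12 with 1 to 4 reads (mean 2.92). The deep sites on either side, 1329 and 160 bases before the start, had 29 and 17 reads in WT and 23 and 15 in Tet1-null cells, and lie 1168 bases apart without counting themselves. This gap overlaps the stretch 1500 to 500 bases before the start, where the proximal enhancer is commonly described, but the enhancer itself was not placed on these coordinates. Within it, 1 of 27 reads was methylated in WT (3.70%, Wilson 95% interval 0.657 to 18.3%) and 2 of 35 in Tet1-null cells (5.71%, 1.58 to 18.6%), so a difference was not detectable at this depth.

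Narrower dips, of 2 neighbouring sites each, occurred within the gene. The sites 49 and 94 bases after the start had 2 and 6 reads in WT and 9 and 8 in Tet1-null cells. In WT this dip was wider, with 8, 5 and 3 reads at the sites 10, 25 and 44 bases after the start. Those sites had 13, 13 and 11 reads in Tet1-null cells. The sites 1730 and 1757 bases after the start had 9 and 7 reads in WT and 10 and 4 in Tet1-null cells. The next site, 1766 bases after the start, had 12 reads in WT and 6 in Tet1-null cells. The sites 4462 and 4483 bases after the start had 3 and 3 reads in WT and 3 and 2 in Tet1-null cells, between deep sites 4322 and 4780 bases after it. Presence of the 3 dips in both pools follows from the rule that defined them, which also set the bounds of the gap. RefSeq lists 7 pseudogenes of Pou5f1 elsewhere in the genome, and how reads shared with them were placed is not given in the sources used here, so depth over coding sequence is uncertain. Across the 226 sites listed in both pools, read numbers of the pools correlated with r = 0.659 (Pearson) and rho = 0.527 (Spearman), a description over sites that share the gap, the dips and their base composition.

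**Figure D2:**
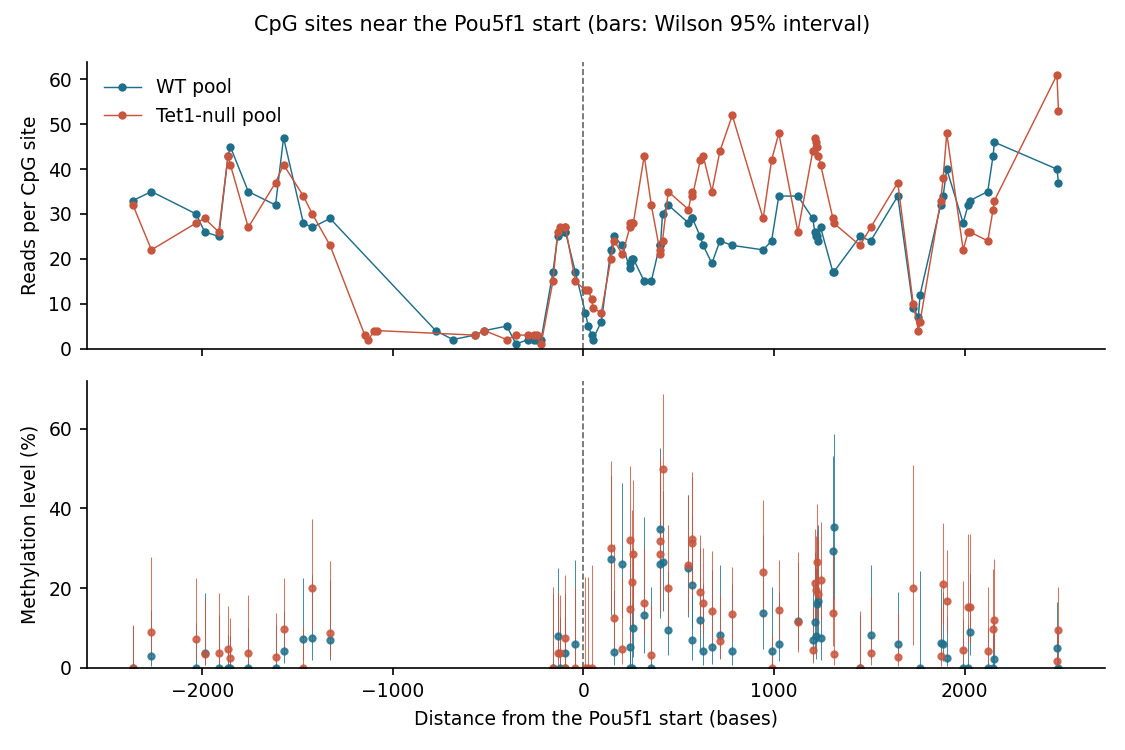
CpG sites within 2500 bases of the Pou5f1 start (dashed line), with reads per site in the upper panel and the methylation level in percent, with Wilson 95% intervals, in the lower panel for sites with 10 or more reads. Points are sites of the WT and Tet1-null pools, and the gap from 1147 to 222 bases before the start and the raised levels after the start appear in both.

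Most of the locus was as lowly methylated as its flanks, and the first part of the gene was more methylated. Over the 17 kb, 276 of 5799 reads were methylated in WT (4.76%, Wilson 95% interval 4.24 to 5.34%) and 464 of 6881 in Tet1-null cells (6.74%, 6.17 to 7.36%). The flanks were at 2.88% (45 of 1565 reads) and 4.16% (109 of 2619 reads), and the autosomes at 3.41% and 4.08%. Intervals cover counting error only. Reads of neighbouring sites share fragments, and whether PCR copies were removed is not stated. The longest deep block, before the gene, was at 2.47% and 3.44%, which differed from the flanks by -0.406 points in WT (Newcombe 95% interval -1.53 to 0.670) and -0.718 points in Tet1-null cells (-1.80 to 0.379). All 5 deep blocks together, a choice made after the gap was seen, were above the flanks by 1.92 points in WT (0.831 to 2.84) and 2.53 points in Tet1-null cells (1.52 to 3.47). Deep blocks differed among themselves. The block from 144 to 1649 bases after the start was at 12.4% and 17.2%, that from 1874 to 4080 bases at 4.52% and 5.87%, and that from 4262 to 9022 bases at 3.69% and 4.35%. The short block from 160 to 42 bases before the start was at 2.92% in either pool, with 4 methylated reads of 137 in each.

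Enhancers were not placed on these coordinates, and the stretches are round distances from the start within which the enhancers are commonly described. The stretch 2500 to 1500 bases before the start, the usual place of the distal enhancer, was the least methylated of 6 stretches in WT. It had 4 methylated reads of 351 there (1.14%, Wilson 95% interval 0.444 to 2.89%) and 15 of 326 in Tet1-null cells (4.60%, 2.81 to 7.45%), a difference of 3.46 points (Newcombe 95% interval 0.954 to 6.40). Further upstream the levels were 2.52% and 2.95%, with a difference of 0.434 points whose interval, -0.727 to 1.56, included 0. The stretch 1500 to 500 bases before the start had few deep sites because it holds much of the gap. Its levels of 7.22% (7 of 97 reads) and 7.48% (8 of 107 reads) differed by 0.260 points (-7.57 to 7.80).

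Around the start the levels were the highest of the 6 stretches. From 500 bases before to 500 bases after the start they were 10.4% in WT (48 of 460 reads) and 15.6% in Tet1-null cells (87 of 559 reads), a difference of 5.13 points (0.9504 to 9.20). In the rest of the gene they were 6.51% (138 of 2120 reads) and 9.24% (230 of 2488 reads), a difference of 2.73 points (1.17 to 4.28). After the gene end they were 3.22% and 4.42%, with a difference of 1.19 points (-0.231 to 2.59). The Tet1-null level was thus the higher in all 6 stretches, with an interval above 0 in 3 of them. At sites with 20 reads in both pools the interval of the stretch around the start included 0 (4.79 points, -0.841 to 10.4), which leaves 2.

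**Figure D3:**
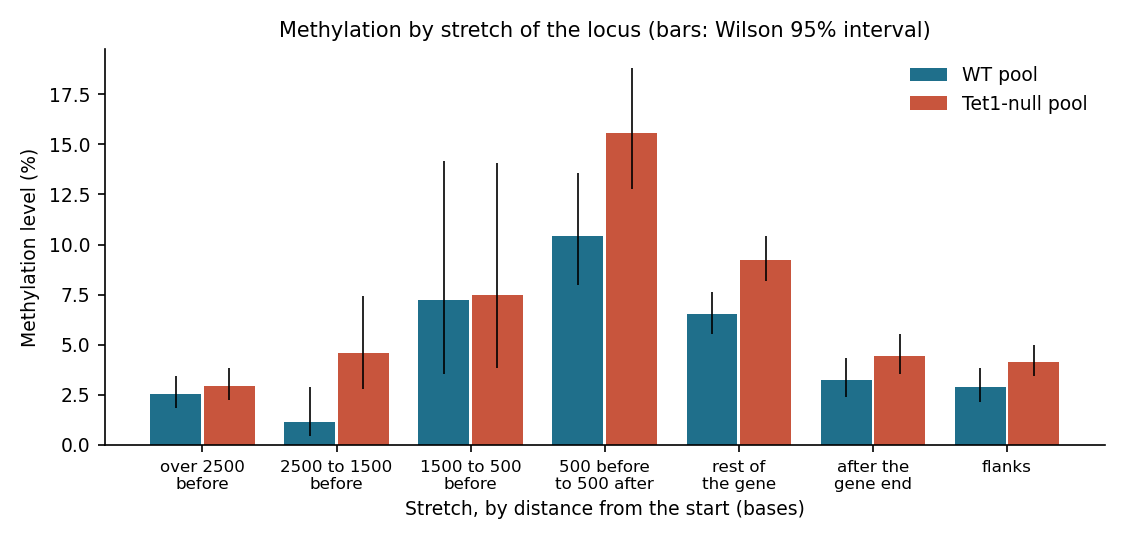
Methylation level in percent (bars from 0, error bars are Wilson 95% intervals) of 6 stretches of the Pou5f1 locus by distance from the start, and of the flanks, in the WT and Tet1-null pools. The stretch from 500 bases before to 500 after the start stands highest at 10.4% and 15.6%.

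In finer steps, the levels were highest in the first 1500 bases after the start and lower on either side. The bin from 1500 bases before the start was at 7.14% in WT and 8.0% in Tet1-null cells, on 84 and 100 reads. The 500 bases before the start were at 2.65% in WT and 3.95% in Tet1-null cells. The next 3 bins of 500 bases after the start were at 14.2%, 10.98% and 12.0% in WT and at 19.9%, 17.3% and 15.5% in Tet1-null cells. From 1500 bases after the start the bins were at 4.55% and 10.7%, and from 2000 bases at 2.26% and 8.66%. From 2500 bases they were at 2.46% and 4.23%. From 3000 bases after the start the order turned, with 5.83% in WT and 2.69% in Tet1-null cells. The bins from 3500 and 4000 bases were at 6.87% and 6.94% in WT and at 4.42% and 6.75% in Tet1-null cells. Beyond the gene end, all bins were below those of the first 1500 bases after the start, but differences of like size occurred in both directions. The bins from 7000 and 8500 bases went from 0.719% to 7.11% and from 2.09% to 8.10%, WT to Tet1-null. The bin from 6500 bases went from 7.73% to 2.22%. Over the first 1500 bases after the start, chosen after these values were seen, 105 of 838 reads were methylated in WT (12.5%, Wilson 95% interval 10.5 to 14.9%) and 213 of 1214 in Tet1-null cells (17.5%, 15.5 to 19.8%). The locus without these bases was at 3.45% and 4.43%.

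**Figure D4:**
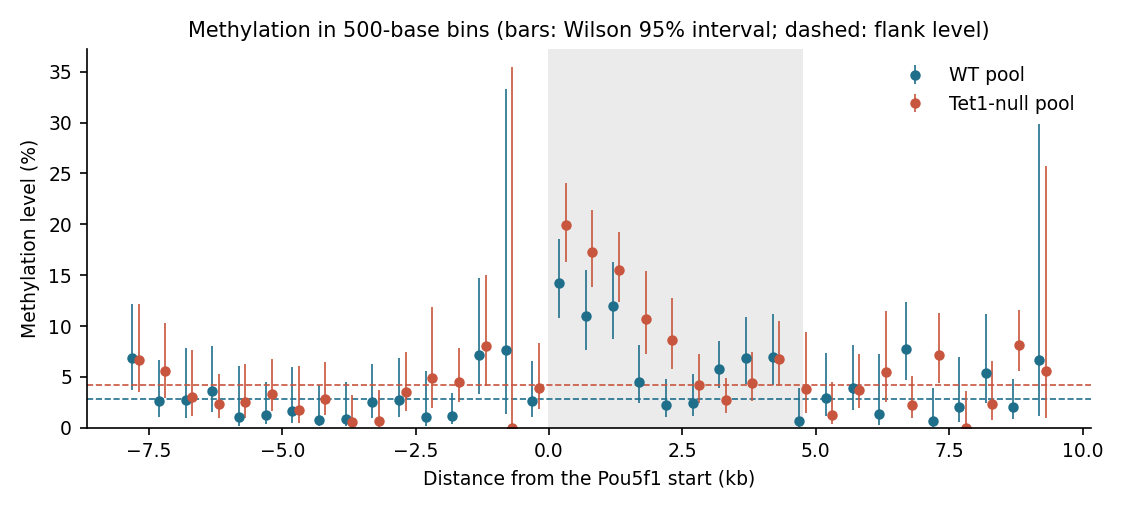
Methylation level in percent in bins of 500 bases against the distance from the Pou5f1 start in kb, with Wilson 95% intervals, for the WT and Tet1-null pools. The dashed lines are the flank levels of 2.88% and 4.16%, the grey band is the gene, and the first 3 bins after the start stand above all others in both pools.

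At single sites the raised part is described from the same reads that chose it, which gives no separate support. Among the 167 sites that had 20 or more reads in each pool, 27 lay within 1500 bases after the start, and their median level was 10.0% in WT and 20% in Tet1-null cells, against 3.03% and 3.45% at the other 140. Levels of 20% or more occurred at 7 of the 27 sites in WT and 14 in Tet1-null cells, and at 0 and 3 of the others. Sites with no methylated read numbered 2 and 2 of the 27, and 52 and 44 of the 140. The highest WT site, 404 bases after the start (35643381), had 8 methylated reads of 23 (34.8%, Wilson 95% interval 18.8 to 55.1%), and 6 of 21 in Tet1-null cells (28.6%, 13.8 to 49.96%). The highest Tet1-null site, 11 bases further (35643392), had 12 of 24 (50%, 31.4 to 68.6%), and 8 of 30 in WT (26.7%, 14.2 to 44.4%). Levels of the pools correlated across the 167 sites with r = 0.581 (Pearson) and rho = 0.301 (Spearman). At the 27 sites after the start these values were 0.554 and 0.569, and at the other 140 they were 0.0890 and 0.0345. Away from the raised part, levels of single sites were thus hardly correlated between the pools. With medians of 3.03% and 3.45% and many sites at 0, levels there rest on few methylated reads. The low values therefore cannot decide whether the pools share a pattern at these sites.

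**Figure D5:**
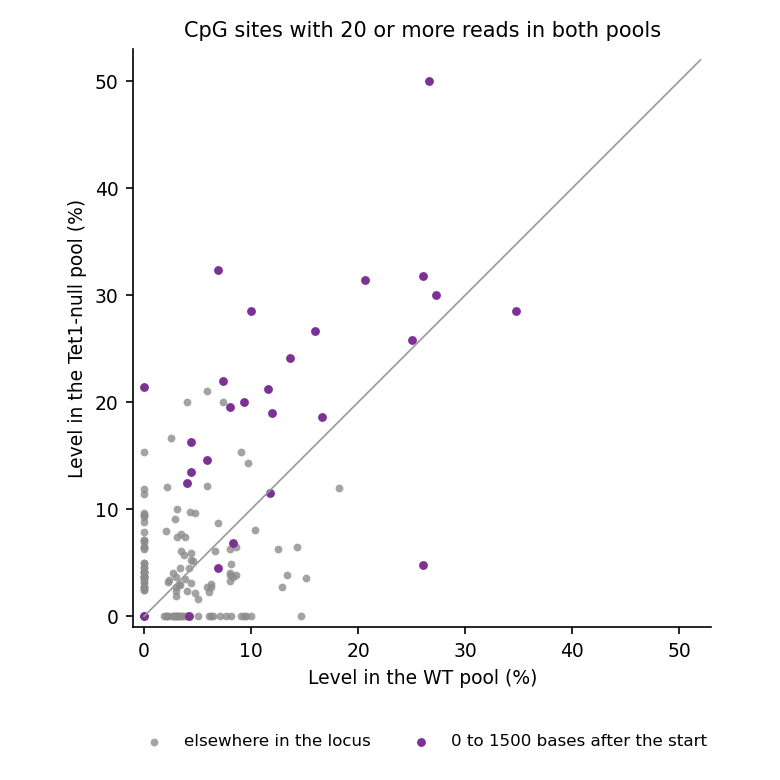
Methylation level of single CpG sites in Tet1-null cells against the WT pool, in percent, for the 167 sites of the locus with 20 or more reads in both pools, with the line of equal levels. The 27 sites within 1500 bases after the start (purple) hold all 7 WT sites at 20% or more and 14 of the 17 Tet1-null sites.

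Among the 167 sites that 20 or more reads covered in each pool, those with the greatest rise in Tet1-null cells lay mostly in this part. The site 572 bases after the start (35643549) went from 2 of 29 to 11 of 34 methylated reads, a rise of 25.5 points. The sites 415, 253 and 262 bases after the start were higher by 23.3, 21.4 and 18.6 points, and a site 7408 bases before it by 16.0 points. Among these 167 sites the greatest fall was also there, at the site 205 bases after the start (35643182), from 6 of 23 to 1 of 21 reads, a difference of -21.3 points. The other named falls were 3410, 4280, 6792 and 5774 bases after the start, at -14.7, -11.6, -10.2 and -10 points. The sites 205 and 253 bases after the start, close neighbours, thus differed in opposite directions. The 3 deepest sites, 5758 bases before the start and 2484 and 2825 bases after it, had 100 to 102 reads in both pools together and levels from 0% to 5%.

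The Tet1-null pool was higher over the locus by 1.98 points (Newcombe 95% interval 1.17 to 2.79). The flanks differed by 1.29 points in the same direction (0.106 to 2.39). The rise of the locus exceeded that of the flanks by 0.697 points (-0.671 to 2.13), an interval that included 0. On sites at least 100 bases apart the difference over the locus was 1.01 points with an interval of -0.157 to 2.15, and in the longest deep block 0.974 points (-0.0776 to 2.01), so in either case 0 was included. Of the 17 windows of 1 kb, 12 were higher and 5 lower in Tet1-null cells, with a median difference of 1.60 points and an SD over windows of 2.66 points. Of all 372073 windows tested, 40.8% were higher and 31.1% lower, with a median of 0 points. The rest had equal levels in both pools, and the median WT level of all these windows was 0%. No window of the locus had equal levels, so its counts cannot be compared directly with these shares.

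No window of the locus passed the test of single windows. Two-sided p-values of Fisher's exact test were adjusted over all windows after Benjamini and Hochberg, with a minimum difference of 20 points. Of the 17 windows, 0 were called higher (0.097% of all windows tested) and 0 lower (0.0637%), against 0.161% called in either direction. The highest WT level of these windows was 13.0% and the highest Tet1-null level was 18.95%. With both pools below 20%, a difference of 20 points could occur in neither direction. Both counts of 0 at this minimum thus follow from the low levels and say nothing further about the locus. Without a minimum difference, 0 of the 17 were called in either direction as well. A quasi-binomial F test, which allows for spread between the sites of a window, also called 0, against 0.0304%. At an unadjusted p under 0.05, Fisher's exact test had 4 windows higher and 2 lower (4.48% of all windows were past this p), and the quasi-binomial test had 3 and 1 (8.20%). Such tests have more power in windows with more reads, and read depth chose the locus. The counts therefore cannot be compared directly with the shares of all windows. The largest differences were in the windows that begin 24 and 1024 bases after the start. The former went from 71 of 547 reads (13.0%) to 148 of 781 (18.95%), by 5.97 points (1.95 to 9.84). The latter went from 44 of 535 (8.22%) to 93 of 671 (13.9%), by 5.64 points (2.06 to 9.12). Their adjusted p-values by Fisher's exact test were 0.435 and 0.331. The greatest fall was in the window that begins 6024 bases after the start, from 6.36% to 2.38%, a difference of -3.97 points. The window of 24 bases after the start had 27 CpG positions. Its level was above that of 89.7% of the 63655 tested windows with 20 to 39 positions in WT and 90.5% in Tet1-null cells, where the medians were 1.85% and 2.38%.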

How the data were processed

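The study's authors deposited 1 table per genotype, in which the reads of 4 WT or 5 Tet1-null libraries were pooled. Per the file headers its values are methylation levels, here a fraction from 0 to 1, and a further column, as deposited, is read as the count of reads at each CpG site. The product of both was whole within 0.0005 per read at 100% of sites. Build mm9 and bedtools are named per the submitters' processing notes. How reads were aligned and whether duplicates were removed is not stated in what was used here. With the tables the authors deposited a script that removes reads in which a C before a base other than G makes up over 1.2% of bases, which can lower levels. The tables held 30386353 and 46716079 reads over sites.

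Bounds of the locus and the gene came with the question. The members, stretches and settings were chosen with earlier results of these data known. Reads were summed with Python 3.11.15, numpy 2.4.6, pandas 2.3.3, scipy 1.17.1 and numba 0.67.0, and drawn with matplotlib 3.10.9. Levels carry Wilson and differences Newcombe 95% intervals, and a level of 0 the limit that 3 counts give. Fisher's exact test was run on each 1 kb window of the autosomes and the X that had 5 or more shared positions and 20 or more reads per pool. Its p-values were adjusted after Benjamini and Hochberg, and a window was called under 0.05 and at 20 points. The procedure was tested on simulated data. Sites named were the 3 deepest, the site nearest the start and, among those that each pool covered with at least 20 reads, the 5 with the greatest rise, the 5 with the greatest fall and the highest of each pool. Other pluripotency genes and annotated neighbours were not analysed here, as no annotation of mm9 was used.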

Additional observations from a re-analysis of the deposited data

How the results depend on the processing

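No paired analysis was possible because the tables pool each genotype's libraries, and leaving out libraries was not run for the same reason. Of 72 alternative values, 61 lay inside the 95% interval of the reported value, or under 1.5 times away for a length or count, and 11 moved. None reversed a difference whose interval excluded 0. The causes were not tested. The ratio of locus to flank depth became 10.8 in Tet1-null cells with means. With unlisted positions counted as 0, added after seeing the data, it was 17.7 in WT and 12.6 in Tet1-null cells. The longest deep block measured 3808 bases at 10 times the flank median, since the higher threshold splits it, and 16737 bases from first to last block with gaps, added later. The level difference of the locus was 1.01 points on sites 100 bases apart, 3.25 in the gene alone and 0.974 in the longest deep block. That block minus the flanks was -3.50 points in Tet1-null cells at sites with 5 reads in both pools. With all deep blocks, added later, the differences from the flanks were 1.92 points in WT and 2.53 in Tet1-null cells. From 500 bases before to 500 after the start, the interval of the difference included 0 at sites with 20 reads in both pools (4.79 points, -0.841 to 10.4). No flank site had 20 reads, so the comparison with the flanks was not run at that minimum. No setting called a window of the locus. The smallest adjusted p of Fisher's exact test there was 0.0366, with 2 kb windows, at a difference under 20 points.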

Other observations

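Outside the locus, 386 tested windows had a mean depth above 10 reads per site in both pools. Their median level was 6.84% in WT and 6.04% in Tet1-null cells, against 3.13% and 3.90% for the 17 windows of the locus. Of the 386 windows, 148 were higher and 235 lower in Tet1-null cells, with a median difference of -0.775 points, whereas 12 windows of the locus were higher and 5 lower. The difference between these sets was not tested.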
